A study of Mus musculus with 6 samples.

Results

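Fatty acid oxidation and ketone production in the liver were followed through 42 genes, picked by name from the 54532 genes of the deposited table. They cover PPAR alpha, fatty acid uptake and activation, the carnitine shuttle, mitochondrial and peroxisomal beta-oxidation, acyl-CoA thioesterases and enzymes of ketone bodies. Whole livers of 3 control mice with floxed Notch1 alleles (Notch1fl/fl) and of 3 mice lacking Notch1 in hepatocytes were compared by RNA sequencing, in a study of how the liver makes thrombopoietin. Neither group had been treated. No source used here gives the Cre driver, strain, sex, age, diet or hour of collection. Levels are FPKM, a read count divided by gene length and by a library factor, so that genes of unequal length can be set side by side. The libraries held 15612924 to 17511961 reads in genes. The control libraries carry the name NC in the table, and only elimination ties that name to the control label. Notch1, the deleted gene, measured 0.618, 0.965 and 0.854 FPKM in control livers and 0.301, 0.540 and 0.292 in knockout livers, with no overlap (limma log2 fold change -0.40, adjusted p = 0.257). This level sums every exon and every cell type of the liver, so it is a weak check of a deletion in hepatocytes.

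Beta-oxidation shortens a fatty acid by an acetyl unit per turn, with a dehydrogenase, a hydratase, another dehydrogenase and a thiolase acting in order. Acyl-CoA synthetases first activate the fatty acid, and long chains enter mitochondria as carnitine esters, while very long chains start in peroxisomes. In a fasted liver the acetyl-CoA formed feeds the making of ketone bodies, which other organs burn in place of glucose. PPAR alpha, a nuclear receptor that fatty acids activate, binds DNA as a partner of RXR and drives many of these genes during fasting.

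The promoters were read first, because PPAR alpha is known to bind a direct repeat of AGGTCA with 1 base between the copies. RefSeq promoter windows of 300 bases on GRCm38.p6, most of each lying before the start, were at hand for 36 of the 42 genes (39 promoters). The exact repeat, with any base N between the copies and searched on both strands, was in 0 of them and in 0.0396% of all 32851 promoters. With 1 base of each copy free (AGGNCA in place of AGGTCA, which also takes every exact match), it was in 1 of the 36 genes and in 0.381% of all promoters. That gene was Fabp1, which encodes the fatty acid binding protein of hepatocyte cytosol and had the highest level of the 42. The stretch below ends just before the outermost start that GENCODE M21 annotates for it, chr6:71199727-71199826, plus strand, with the matched letters in capitals. The match lies at bases -67 to -55 from the RefSeq start.
Fabp1: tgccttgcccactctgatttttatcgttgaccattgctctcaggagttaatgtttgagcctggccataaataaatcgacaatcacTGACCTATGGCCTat
A single copy, AGGTCA, which is part of the exact repeat and was searched after the other results were seen, was in the promoters of 8 of the 36 genes and in 16.3% of all promoters. These 8 were Slc27a2, Acadm, Fabp1, Acadvl, Acot3, Acot4, Acot12 and Cpt1a. A match is only a run of letters in this window.

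Hadha and Hadhb, the alpha and beta subunits of the mitochondrial trifunctional protein, lie head to head on chromosome 5. The 85 bases between the outermost starts that GENCODE M21 annotates for these genes, chr5:30155163-30155247, plus strand, are shown because both genes are read outward from this stretch and both were lower in the knockouts. No letters are in capitals, since the repeat was not found here.
Hadha and Hadhb: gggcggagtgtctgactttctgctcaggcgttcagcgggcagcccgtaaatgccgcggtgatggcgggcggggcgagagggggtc
Of these bases, 69.4% were G or C, against 43.0% of the 100 bases shown for Fabp1.

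As a group the 42 genes were lower in the livers without hepatocyte Notch1, by a modest amount that ran through nearly every step of the pathway. All 42 passed the filter of a mean of 0.5 FPKM. On the log2(FPKM + 1) scale, 39 of them had lower means in the knockouts, as did 51.9% of the 12022 genes tested. By mean FPKM Ppara was lower too, by 0.306%. The count was 36 with libraries scaled to equal read totals (background 29.9%) and 38 with quantile normalization (background 53.2%). Their median log2 fold change was -0.28, against -0.0081 over all genes tested. None of the 42 passed an adjusted p of 0.05 by limma (background 0.025%), and the smallest adjusted p was 0.107, for Acsl1. At an unadjusted p under 0.05, 18 were lower (42.9%, background 7.06%) and 1 was higher (background 6.83%). All 3 knockouts lay below all 3 controls in 23 genes (54.8%, background 10.6%) and above them in 1 (background 9.2%). A limma voom fit on reads recovered from the table also called 0 of the 42 past the adjusted threshold (background 0.125%), with 19 lower (background 7.39%) and 1 higher (background 7.15%) at an unadjusted p under 0.05.

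The size of the shift depended on how libraries were scaled. With equal read totals the median of all tested genes moved from -0.0081 to 0.097 and that of the 42 from -0.28 to -0.14, a distance from all genes of -0.24 in place of -0.27. At this scaling 5 of the 42 were lower at an unadjusted p under 0.05 (background 3.03%) and 1 was higher (background 11.4%), and 7 lay wholly below the controls (background 4.4%) and 1 wholly above (background 15.9%). The 5 lower genes were Acsl1, Slc27a2, Acat1, Vnn1 and Etfdh. With quantile normalization the median of the 42 was -0.18, a distance from all genes of -0.16. At that scaling 10 were lower at an unadjusted p under 0.05 (background 7.15%). Without control 2 the count was 9 (background 5.43%), and without knockout 1 it was 11 (background 7.86%).

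**Figure D1:**
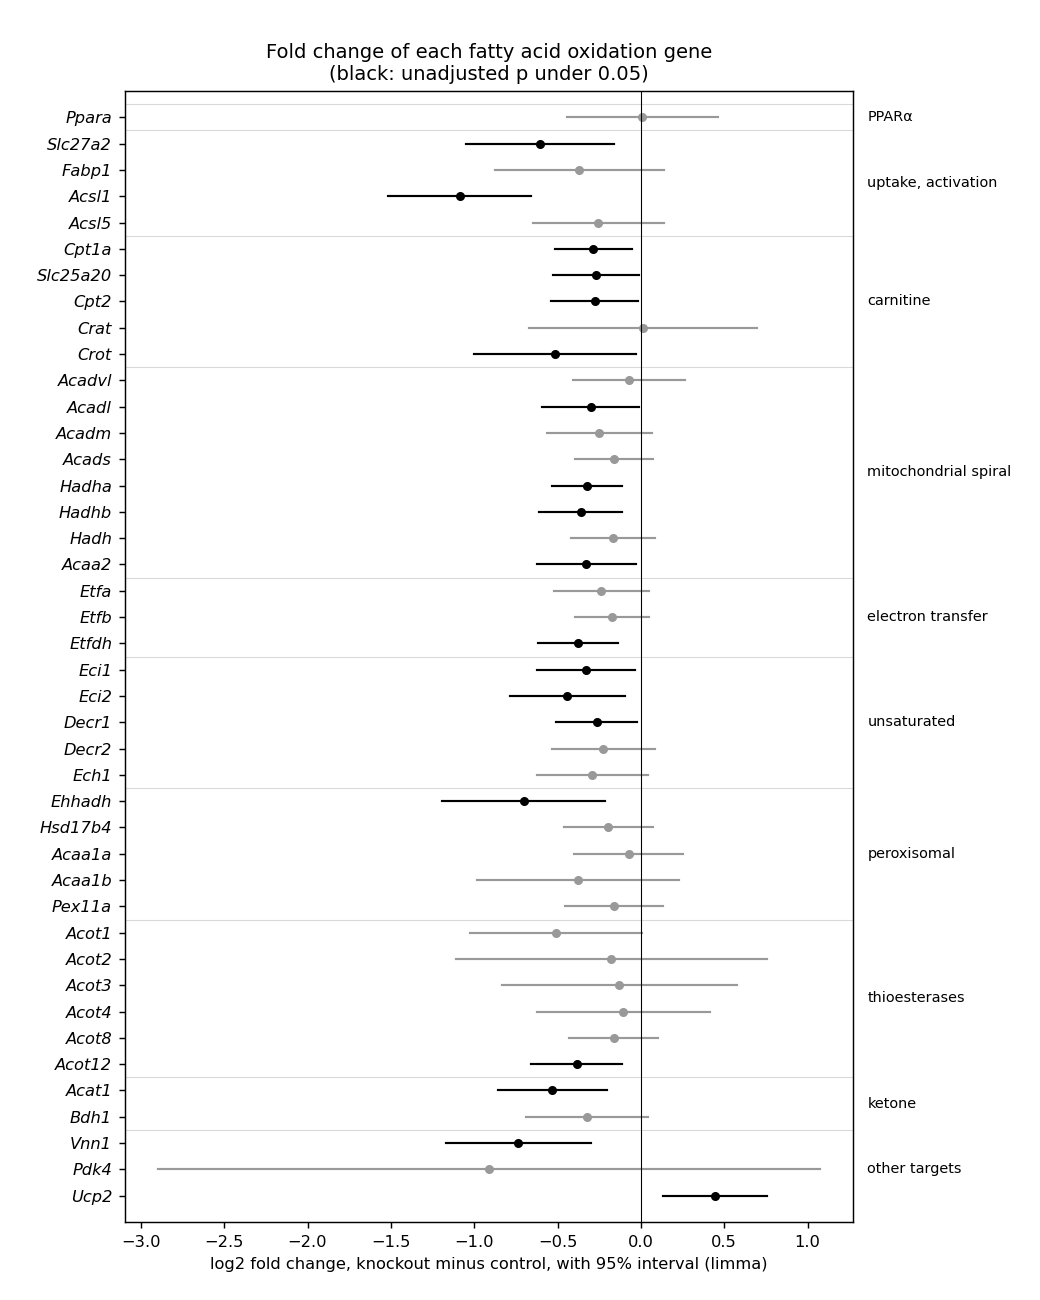
Log2 fold change of each of the 42 genes (x axis, knockout minus control, limma on log2(FPKM + 1)) with its 95% interval, grouped by role. Points lie left of 0 for 39 genes, and 19 genes at an unadjusted p under 0.05 are black, of which Ucp2 alone is to the right.

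Ppara, the gene of the receptor itself, had nearly equal means in both groups. It measured 16.0, 22.5 and 25.5 FPKM in controls 1 to 3, against 25.4, 19.0 and 19.3 in knockouts 1 to 3, with the groups interleaved (log2 fold change 0.0083, 95% interval -0.45 to 0.46, adjusted p = 0.992). Control 1 was the lowest of the 6 livers, and without it the log2 fold change was -0.18.

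Genes for the uptake, binding and activation of fatty acids held the largest difference. Acsl1, the main long-chain acyl-CoA synthetase of liver (ENSMUSG00000018796, chromosome 8, 46471037 to 46536051, GRCm38), measured 167, 111 and 139.8 FPKM in controls 1 to 3, against 75.5, 57.1 and 61.0 in knockouts 1 to 3. Each knockout lay below each control, and the control mean was 2.16 times that of the knockouts (log2 fold change -1.09, SE 0.18, limma adjusted p = 0.107, 0.0747 to 0.310 over the alternatives). Slc27a2, an importer and activator of long and very long chains (chromosome 2, 126552407 to 126588243), measured 316, 294 and 265 FPKM in controls 1 to 3, against 212, 145 and 227 in knockouts 1 to 3. Its groups did not overlap either, and knockout 2 was the lowest liver (log2 fold change -0.60, adjusted p = 0.245). Fabp1, whose promoter stretch is printed above, measured 5826, 8038 and 6928 FPKM in controls 1 to 3, against 4656, 5835 and 5544 in knockouts 1 to 3. Knockout 2 lay just above control 1, so the groups touched (log2 fold change -0.37, adjusted p = 0.496). Acsl5, a further acyl-CoA synthetase, measured 71.0, 84.8 and 77.6 FPKM in controls 1 to 3, against 62.5, 81.2 and 53.7 in knockouts 1 to 3, with knockout 2 among the controls.

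The carnitine shuttle was lower at each of its steps, by similar amounts. Cpt1a, the rate-limiting enzyme that loads long chains onto carnitine at the outer membrane (chromosome 19, 3323301 to 3385732), measured 70.5, 73.5 and 72.7 FPKM in controls 1 to 3, against 55.8, 57.4 and 64.2 in knockouts 1 to 3. The controls spread over only a few FPKM, and the knockout mean was 18.1% lower (log2 fold change -0.29, SE 0.098, adjusted p = 0.279). Slc25a20, the carrier across the inner membrane, measured 25.96, 25.1 and 27.2 FPKM in control livers and 20.7, 19.6 and 24.5 in knockout livers. Cpt2, which hands the chain back to CoA inside, measured 83.6, 70.9 and 71.8 FPKM in control livers and 64.7, 57.2 and 64.0 in knockout livers. In both genes every knockout lay below every control, with log2 fold changes of -0.27 and -0.28. With equal read totals Cpt1a, Slc25a20 and Cpt2 were at -0.146, -0.130 and -0.137, at unadjusted p of 0.299, 0.352 and 0.256 in limma. Crot, the peroxisomal carnitine octanoyltransferase, measured 227, 291 and 219 FPKM in control livers and 201, 129 and 190.2 in knockout livers. Knockout 2 stood well below the other knockouts, and the groups did not overlap (log2 fold change -0.52, unadjusted p = 0.0397). Without knockout 2 the log2 fold change of Crot was -0.32 and no longer passed an unadjusted p of 0.05. Crot was at -0.37 with equal read totals, at an unadjusted p of 0.0702 in limma. Crat, which acts on acetyl-CoA, measured 5.69, 7.58 and 11.1 FPKM in control livers and 5.20, 10.7 and 8.75 in knockout livers, and here the groups were mixed (log2 fold change 0.0096, 95% interval -0.67 to 0.69). The ratio of Cpt1a to Cpt2 within a liver was 0.964 ± 0.106 in controls and 0.957 ± 0.0818 in knockouts (SD, n = 3).

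All 8 enzymes of the mitochondrial spiral had lower means in the knockouts, by 5.64% (Acadvl) to 23.2% (Hadhb), although Acadvl was higher with equal read totals (log2 fold change 0.069), with quantile normalization (0.045) and without control 2 (0.025). Hadha (ENSMUSG00000025745, chromosome 5, 30118304 to 30155162), which carries the hydratase and long-chain dehydrogenase activities, measured 40.6, 45.4 and 43.6 FPKM in controls 1 to 3, against 34.8, 34.6 and 33.5 in knockouts 1 to 3. Hadhb (chromosome 5, 30155248 to 30184593), the thiolase subunit, measured 24.0, 28.3 and 24.0 FPKM in control livers and 20.6, 19.8 and 18.2 in knockout livers. The knockouts were tightly grouped in both genes and lay below all controls (log2 fold changes -0.32 and -0.36, SE 0.089 and 0.10, adjusted p = 0.207 and 0.222). Of the 100-base windows of Hadhb, 52.8% also occur in the processed pseudogene Gm13910, and the part of shared reads in its level was not tested. The Hadha to Hadhb ratio stayed near the same value in each liver, 1.605 to 1.82 in controls and 1.69 to 1.84 in knockouts. Acaa2, the thiolase for medium chains and the second most abundant of the 42, measured 656, 730.3 and 629 FPKM in control livers and 545, 545 and 513 in knockout livers. Its groups were apart as well (log2 fold change -0.33, unadjusted p = 0.0347). Acadl, a long-chain acyl-CoA dehydrogenase, measured 91.3, 101 and 95.6 FPKM in control livers and 71.1, 90.1 and 72.5 in knockout livers. Knockout 2 came close to the lowest control there, without reaching it (log2 fold change -0.30, unadjusted p = 0.0440). The log2 fold changes of Hadha, Hadhb, Acaa2 and Acadl were -0.18, -0.22, -0.18 and -0.16 with equal read totals. Their unadjusted p at that scaling was 0.154, 0.0924, 0.212 and 0.364 in limma.

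The remaining enzymes of the spiral differed less. Hadh, which oxidizes short and medium hydroxyacyl-CoA, measured 59.7, 68.0 and 59.4 FPKM in control livers and 55.6, 59.2 and 51.5 in knockout livers, apart by a fraction of an FPKM (unadjusted p = 0.159). Acadm, the medium-chain dehydrogenase, measured 66.7, 85.3 and 78.8 FPKM in control livers and 60.8, 72.8 and 59.8 in knockout livers, with overlap between control 1 and knockout 2. Acads, the short-chain dehydrogenase, measured 87.3, 85.8 and 76.8 FPKM in control livers and 72.0, 73.8 and 77.1 in knockout livers, and knockout 3 lay just above control 3. Acadvl, the very-long-chain dehydrogenase, measured 53.7, 74.4 and 68.5 FPKM in control livers and 64.9, 63.9 and 56.8 in knockout livers, fully mixed (unadjusted p = 0.629).

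Electrons from these dehydrogenases pass through the electron transfer flavoprotein, encoded by Etfa and Etfb, to its oxidoreductase, encoded by Etfdh. Each of the 3 genes was lower in every knockout than in any control (background 10.6%). Etfdh measured 37.9, 42.4 and 38.1 FPKM in controls 1 to 3, against 32.7, 28.2 and 29.6 in knockouts 1 to 3 (log2 fold change -0.38, SE 0.10, adjusted p = 0.196). Etfa measured 203, 224 and 205 FPKM in control livers and 174, 199 and 164 in knockout livers, and Etfb 23.8, 24.9 and 23.3 FPKM in control livers and 19.5, 21.7 and 22.4 in knockout livers. These gaps were narrow, at unadjusted p of 0.0880 and 0.104. With equal read totals the log2 fold changes of Etfdh, Etfa and Etfb were -0.24, -0.095 and -0.036, at unadjusted p of 0.0476, 0.547 and 0.791 in limma. The flavoprotein subunits differed widely in level, with 8.52 to 9.02 times as much Etfa as Etfb in controls. Of the 100-base windows of the longest Etfb transcript, 65.2% also occur in Gm45233, an annotated gene that overlaps it and is listed at 0 FPKM in all 6 livers. No source used here says how shared reads were counted, and the part of this overlap in the Etfb level was not tested.

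Enzymes that deal with double bonds all had lower means, 3 of 5 at an unadjusted p under 0.05 (background 7.06%). With equal read totals none of these 3 was under 0.05, at unadjusted p of 0.0681 (Eci2), 0.284 (Eci1) and 0.328 (Decr1) in limma. Eci2, an isomerase of peroxisomes and mitochondria, measured 35.9, 41.2 and 36.5 FPKM in controls 1 to 3, against 28.8, 22.5 and 32.4 in knockouts 1 to 3. Knockout 2 was again the lowest liver (log2 fold change -0.44, adjusted p = 0.268). Eci1, the mitochondrial isomerase, measured 167, 178 and 153 FPKM in control livers and 117, 143 and 137 in knockout livers. Decr1, the mitochondrial dienoyl-CoA reductase, measured 66.8, 75.0 and 65.4 FPKM in control livers and 59.1, 59.0 and 53.4 in knockout livers. Both were without overlap, with log2 fold changes of -0.33 and -0.27. Ech1, a dienoyl-CoA isomerase, measured 155, 186 and 158 FPKM in control livers and 136, 155 and 118 in knockout livers, where knockout 2 lay below the lowest control by less than the rounding shown. Decr2, the peroxisomal reductase, measured 109, 117 and 98.2 FPKM in control livers and 79.5, 98.9 and 98.96 in knockout livers, with a small overlap.

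In peroxisomes one gene stood out. Ehhadh, the bifunctional hydratase and dehydrogenase of the peroxisomal pathway and a classical PPAR alpha target (ENSMUSG00000022853, chromosome 16, 21761287 to 21787807), measured 237, 238 and 267 FPKM in controls 1 to 3, against 112, 157 and 197 in knockouts 1 to 3. The knockouts were spread widely but all lay below the controls, whose mean was 1.59 times theirs (log2 fold change -0.70, SE 0.21, adjusted p = 0.225). The log2 fold change of Ehhadh was -0.56 with equal read totals (limma unadjusted p = 0.0585). Hsd17b4, the other bifunctional enzyme, which also handles bile acid precursors, measured 121, 127 and 127 FPKM in control livers and 117, 96.6 and 115 in knockout livers, apart by a few FPKM (unadjusted p = 0.126). Acaa1b, a peroxisomal thiolase, measured 449.9, 665 and 641 FPKM in control livers and 320.1, 573 and 477 in knockout livers. Its livers overlapped, and control 1 and knockout 1 were the lowest of their groups (unadjusted p = 0.185). Acaa1a, the closely related thiolase, measured 31.9, 38.8 and 35.1 FPKM in control livers and 29.5, 31.8 and 39.7 in knockout livers, mixed between groups, and its log2 fold change of -0.072 turned to 0.067 with equal read totals and to 0.015 without knockout 1. Pex11a, a peroxisome division protein, measured 23.6, 22.2 and 27.4 FPKM in control livers and 20.5, 19.9 and 24.7 in knockout livers, with overlap. Windows of 100 bases shared between Acaa1a and Acaa1b made up 21.6% and 22.6% of their transcripts, and reads from these could go to either gene, at 10.9 to 18.3 times as much Acaa1b as Acaa1a.

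The acyl-CoA thioesterases free fatty acids or acetate from CoA. Of the 6, 1 had all knockouts below all controls (16.7%, background 10.6%), a count too small to set the group apart. That was Acot12, a cytosolic enzyme that splits acetyl-CoA, which measured 30.8, 36.0 and 33.2 FPKM in controls 1 to 3, against 22.2, 26.8 and 26.9 in knockouts 1 to 3. Its groups were well apart as deposited (log2 fold change -0.39, SE 0.11, adjusted p = 0.225). Acot12 was at -0.25 with equal read totals (limma unadjusted p = 0.161). Acot1, the cytosolic long-chain enzyme, measured 18.4, 21.9 and 25.7 FPKM in control livers and 10.6, 18.6 and 17.0 in knockout livers, with knockout 2 just above control 1 (unadjusted p = 0.0513). The mitochondrial Acot2 measured 2.55, 3.07 and 5.54 FPKM in control livers and 1.22, 4.93 and 3.97 in knockout livers, and the peroxisomal Acot4 2.63, 4.18 and 5.67 FPKM in control livers and 3.10, 4.09 and 3.84 in knockout livers. Both were mixed, and control 3 was the highest liver in each. Acot3, the least abundant of the 42 (19 to 112 reads per library), measured 0.368, 0.599 and 1.96 FPKM in control livers and 0.467, 1.117 and 0.595 in knockout livers. Without control 3 the log2 fold changes of Acot2, Acot3 and Acot4 turned from -0.18, -0.13 and -0.10 to 0.084, 0.20 and 0.10, that of Acot2 was 0.25 without knockout 1, and that of Acot4 was 0.0092 with equal read totals. Acot8, a peroxisomal enzyme, measured 8.16 ± 0.548 FPKM in control livers and 7.20 ± 0.954 in knockout livers (SD, n = 3), with overlap. Acot1, Acot2, Acot3 and Acot4 lie together on chromosome 12, and Acot1 shared 16.5% of its 100-base windows with Acot2.

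Both ketone body enzymes were lower. Acat1, the mitochondrial thiolase that joins acetyl-CoA units at the start of ketone synthesis (ENSMUSG00000032047, chromosome 9, 53580522 to 53610382), measured 128, 156 and 129.5 FPKM in controls 1 to 3, against 99.7, 104 and 82.2 in knockouts 1 to 3. Every knockout lay below every control, by a ratio of means of 1.45 (log2 fold change -0.53, SE 0.14, adjusted p = 0.184). Bdh1, which interconverts acetoacetate and hydroxybutyrate, measured 45.4, 59.7 and 49.9 FPKM in control livers and 35.5, 48.7 and 39.3 in knockout livers. Knockout 2 lay among the controls and the other knockouts below them (log2 fold change -0.32, unadjusted p = 0.0753).

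Of the other PPAR alpha targets, Vnn1 was lower, Ucp2 was higher and Pdk4 varied most. Vnn1, a pantetheinase that recycles the vitamin part of CoA (chromosome 10, 23894688 to 23905343), measured 20.9, 21.9 and 22.0 FPKM in controls 1 to 3, against 9.96, 11.5 and 17.2 in knockouts 1 to 3. The controls lay within about an FPKM of each other and all knockouts were below them (log2 fold change -0.73, SE 0.18, adjusted p = 0.181). Ucp2, a mitochondrial carrier that in normal liver is known chiefly from Kupffer cells (chromosome 7, 100493337 to 100502020), measured 6.65, 6.66 and 5.07 FPKM in controls 1 to 3, against 7.91, 8.28 and 9.87 in knockouts 1 to 3. It was the only one of the 42 with all knockouts above all controls, at 1.42 times the control mean (log2 fold change 0.45, SE 0.13, adjusted p = 0.225). The summed level of 12 Kupffer cell and macrophage markers was 403 to 517 FPKM in controls and 428 to 541 in knockouts, and their part in the Ucp2 value was not tested. Pdk4, the kinase that shuts pyruvate out of the citric acid cycle during fasting, measured 10.9, 15.6 and 70.7 FPKM in controls 1 to 3, against 5.37, 8.20 and 35.4 in knockouts 1 to 3. Control 3 and knockout 3 were each several times above the rest of their group, so the interval of the log2 fold change of -0.91 was wide (-2.90 to 1.07, adjusted p = 0.680). Single livers moved that value, to -0.13 without control 3, -0.41 without knockout 1, -1.42 without control 1 and -1.66 without knockout 3.

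**Figure D2:**
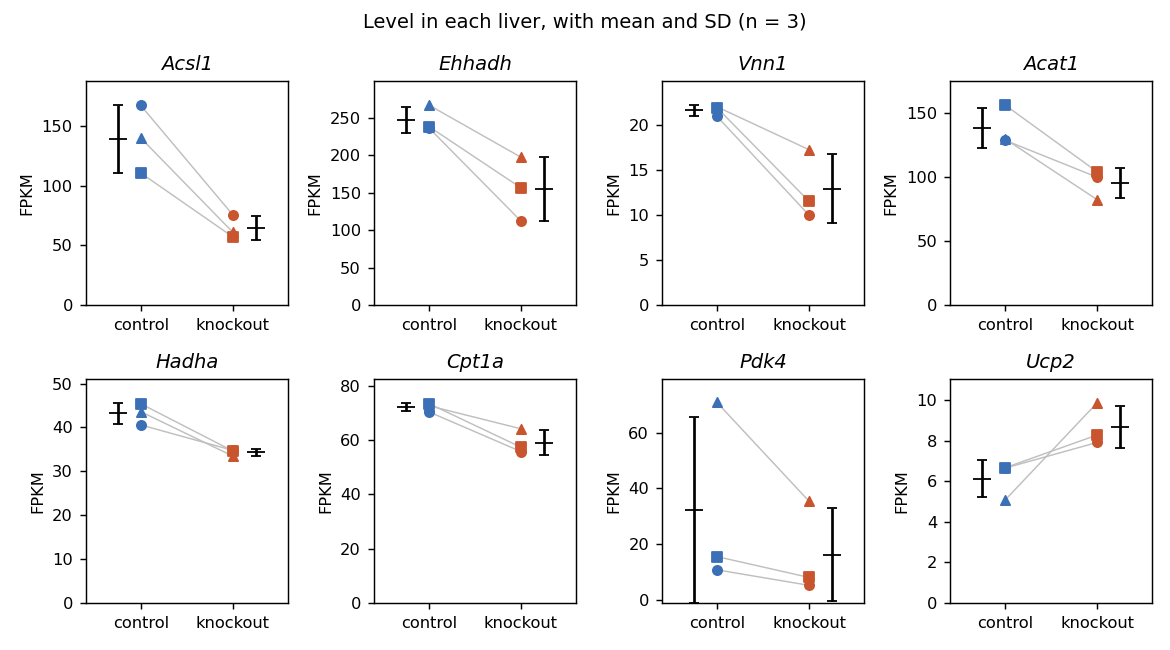
FPKM of 8 genes in each liver (y axis, from 0, lower only where an SD bar passes 0), controls in blue and knockouts in orange, with mean and SD beside the points (n = 3) and grey lines between livers of the same number. All knockouts lie below all controls in Acsl1, Ehhadh, Vnn1, Acat1, Hadha and Cpt1a, above them in Ucp2, and Pdk4 overlaps.

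Same-numbered livers deviated weakly in the same direction across genes, at correlations of 0.31, 0.16 and 0.10. Control 3 with knockout 2, of unlike numbers, was at 0.11. Pdk4 is 1 gene and cannot show how livers were paired. Its knockout to control ratios within numbers 1, 2 and 3 were 0.492, 0.524 and 0.501, nearly the same although the level itself ranged from 5.37 to 70.7 FPKM. Blocking on that number, the SE of its log2 fold change was 0.086 in place of 0.84 (adjusted p = 0.0778, with 0.964 as the highest value over the alternatives). Acsl1 had within-number ratios of 0.452, 0.516 and 0.436 and the same adjusted p with the block. In 32 of the 42 genes the knockout was lower in each of the 3 same-numbered pairs (background 21.2%), and in 1, Ucp2, it was higher in each (background 18.9%). In the blocked fit 0 of the 42 passed the adjusted threshold (background 0.0%), and 22 were lower and 1 higher at an unadjusted p under 0.05 (background 8.18% and 7.94%). The labels do not say what, if anything, same-numbered mice share.

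Liver by liver, the shift was present in each knockout at the deposited scaling, the only one at which it was taken by liver. The median difference of the 42 genes from the control mean, on log2(FPKM + 1), was -0.31, -0.22 and -0.27 in knockouts 1 to 3 and -0.074, 0.096 and -0.0025 in controls 1 to 3. In knockouts 1, 2 and 3, 40, 36 and 36 of the genes lay below the control mean. The lowest knockout was knockout 1 in 20 genes and knockouts 2 and 3 in 11 each, where over all tested genes the shares were 32.6%, 37.2% and 30.2% for knockouts 1, 2 and 3. Knockout 2 was lowest in Slc27a2, Crot, Eci2 and Hsd17b4, and knockout 1 in Ehhadh, Vnn1, Acaa1b and Acot1. Reads of the 42 genes made up 1.51% to 1.76% of each control library and 1.18% to 1.51% of each knockout library. By this share of reads knockout 2 (1.507%) was nearly level with control 1 (1.514%), so the groups were barely apart.

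**Figure D3:**
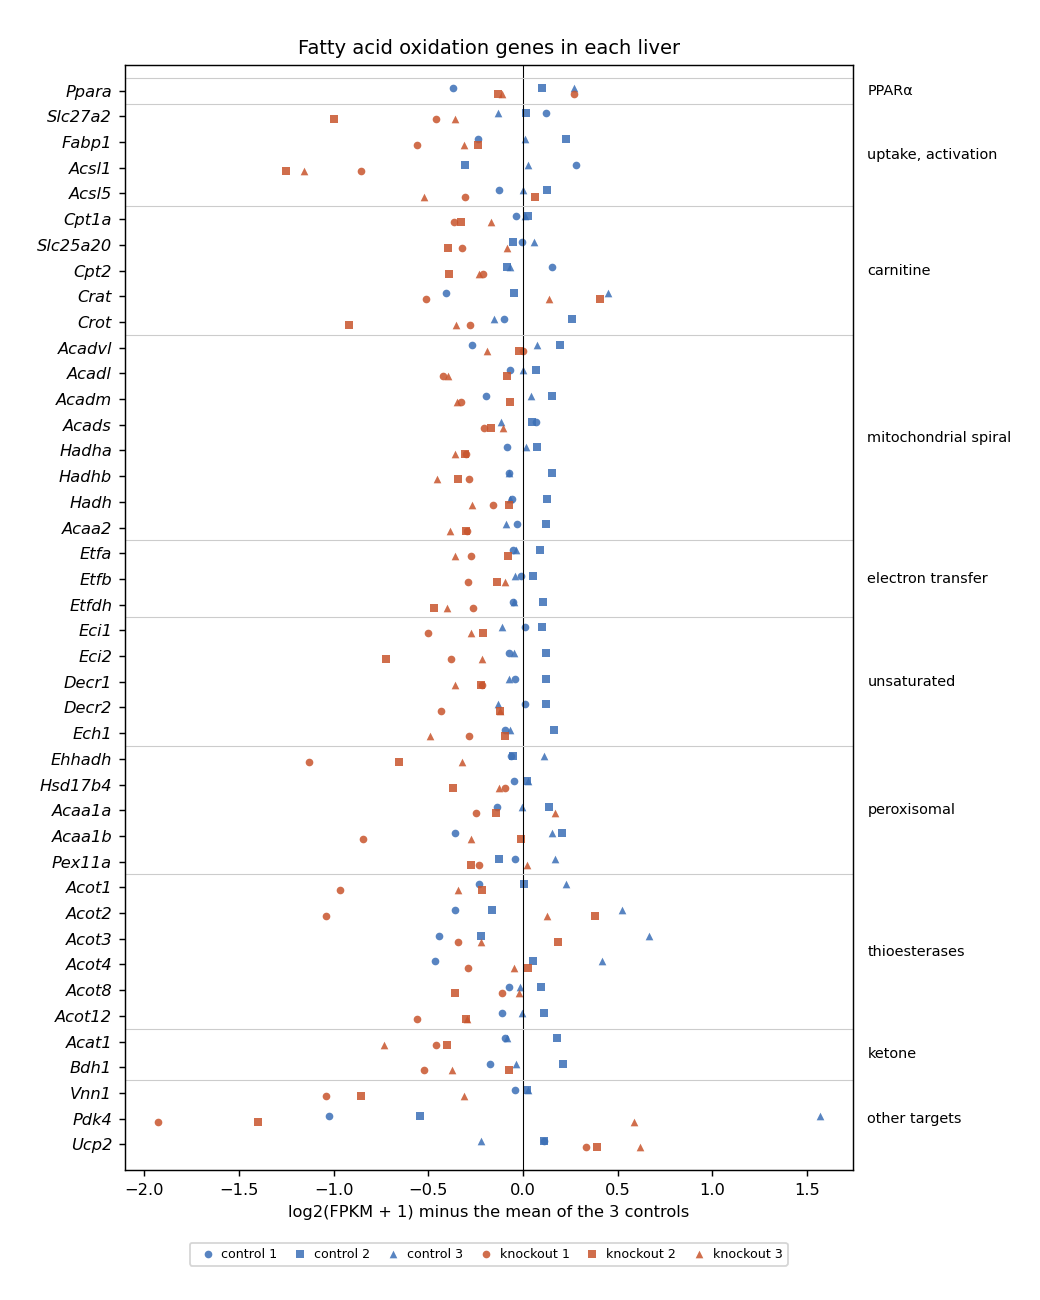
Difference of each liver from the mean of the 3 controls (x axis, log2(FPKM + 1)) for the 42 genes, grouped by role, controls in blue and knockouts in orange, symbols by replicate number. Knockout points lie wholly left of the control points in 23 genes and wholly right in Ucp2, with the widest spread in Pdk4.

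Further genes of the pathway, from lists written for this comparison with earlier results of these data known, were also mostly lower. Of 67 other oxidation, peroxisome and ketone genes 61 were tested, of which 48 had lower means (78.7%, background 51.9%), with a median log2 fold change of -0.19. With equal read totals 43 had lower means (background 29.9%) and the median was -0.080. At an unadjusted p under 0.05, 19 were lower (31.1%, background 7.06%) and 3 higher (background 6.83%), and 0 passed the adjusted threshold (background 0.025%). Abcd3, a peroxisomal importer of fatty acids, measured 112, 109 and 109.8 FPKM in control livers and 81.0, 77.8 and 71.7 in knockout livers. It had the smallest p of the list, with controls within a few FPKM of each other (log2 fold change -0.51, SE 0.096, adjusted p = 0.115). Cat, the catalase that clears the peroxide made by peroxisomal oxidation, measured 1242, 1211 and 1186 FPKM in control livers and 988, 799 and 877 in knockout livers. Acad10, Acsm5 and Acsf2 were also without overlap, with log2 fold changes of -0.47, -0.40 and -0.37.

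The 3 higher genes, of 61 tested and so a share below the background of 6.83%, were Slc16a1, Oxct1 and Acot9. Slc16a1, a monocarboxylate transporter that carries lactate and ketone bodies, measured 17.9, 16.0 and 18.9 FPKM in control livers and 20.9, 24.1 and 25.3 in knockout livers. Oxct1, the enzyme of ketone use that hepatocytes are known to lack, measured 1.73, 2.02 and 2.62 FPKM in control livers and 2.87, 3.71 and 3.27 in knockout livers. Both were higher in every knockout (log2 fold changes 0.39 and 0.46), as was Acot9, a mitochondrial thioesterase, at 0.39.

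Among other PPAR alpha targets and partners, 27 of 39 tested had lower means (69.2%, background 51.9%), with a median of -0.11. With equal read totals 20 had lower means (background 29.9%), with a median of -0.014 against 0.097 over all tested genes. Of these 39 genes 8 were lower (20.5%, background 7.06%) and 1 was higher (background 6.83%) at an unadjusted p under 0.05. None was past the adjusted threshold (background 0.025%). Cyp4a10, a fatty acid omega-hydroxylase strongly driven by PPAR alpha, measured 207, 261 and 222 FPKM in controls 1 to 3, against 74.7, 95.2 and 122 in knockouts 1 to 3. The knockouts were all under the lowest control (log2 fold change -1.25, adjusted p = 0.105). Angptl4, an inhibitor of lipoprotein lipase, measured 81.5, 72.7 and 92.4 FPKM in control livers and 58.8, 39.6 and 60.3 in knockout livers. Retsat, a retinol saturase, had a log2 fold change of -0.56. Both were without overlap, as were Cyp4a32, Sirt3 and Sult2a8, at log2 fold changes of -0.96, -0.39 and -0.95. Ppard, a sister receptor of PPAR alpha, was the 1 higher gene of the 39, a share below the background of 6.83%. It measured 2.29, 2.12 and 2.91 FPKM in control livers and 3.81, 3.66 and 3.41 in knockout livers (log2 fold change 0.43).

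Neighbouring lipid and mitochondrial pathways gave other values. Of 46 tested nuclear genes of the respiratory chain, 39 had lower means (84.8%, background 51.9%) with a median log2 fold change of -0.11. With equal read totals 14 had lower means (background 29.9%) and 32 higher, and the median was 0.029 against 0.097 over all tested genes. With quantile normalization 24 were lower (background 53.2%) with a median of -0.0040. As deposited, 2 of the 46 were lower at an unadjusted p under 0.05 (4.35%, background 7.06%). Of 23 genes of fatty acid synthesis, 8 had lower means (34.8%, background 51.9%), with a median of 0.083 (0.20 with equal read totals). At an unadjusted p under 0.05, 2 were lower (background 7.06%) and 1 was higher (background 6.83%). These differences between lists were not tested.

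**Figure D4:**
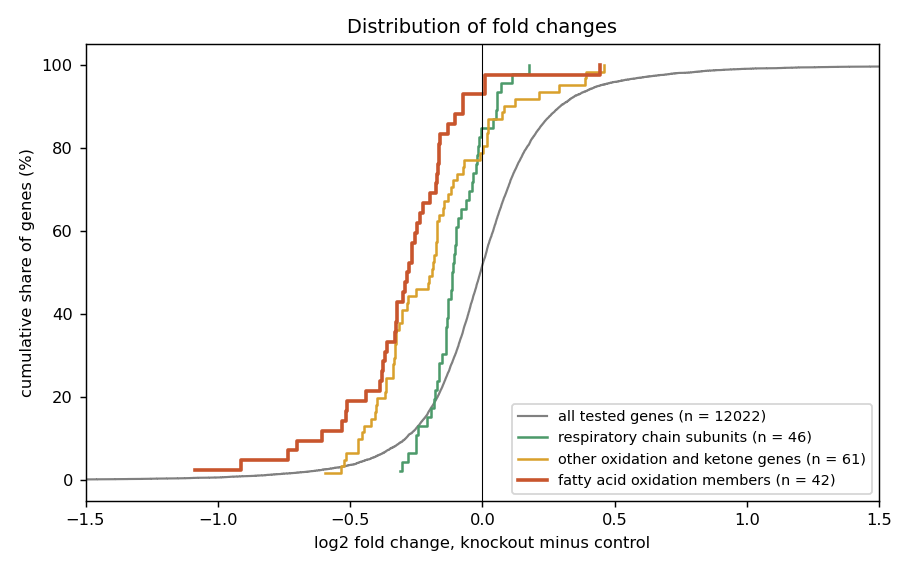
Cumulative share of genes (y axis, %) by log2 fold change (x axis, knockout minus control) for the 42 genes, other oxidation and ketone genes, respiratory chain subunits and all tested genes. The curve of the 42 genes lies to the left, with a median of -0.28 against -0.19, -0.11 and -0.0081.

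Several other features of these livers moved alongside. Of 12 hepatocyte markers 11 had lower means (background 51.9%), with a median log2 fold change of -0.24. With equal read totals 8 did (background 29.9%, median -0.095), and with quantile normalization 9 did (background 53.2%, median -0.056). Their summed level was 50420 to 58050 FPKM in controls and 36358 to 47591 in knockouts. Higher means were found in 5786 of the 12022 genes tested, the background for the counts of higher markers that follow. All 8 genes listed as mesothelial markers, for the cell layer that covers the liver, were higher (median 2.04). Their summed levels were 97.5 to 171 FPKM in controls and 229 to 340.1 in knockouts. The list holds Krt8 and Slpi, which are not limited to that layer, so the sum is not a level of mesothelium alone. Of 23 acute phase genes 21 had higher means, summing to 26017 and 24802 FPKM in knockouts 1 and 3, but 10146 in knockout 2 and 11954 to 14516 in controls. Of 7 adipocyte genes only Car3, which hepatocytes also express, passed the filter (log2 fold change -1.46), while Lep and Ucp1 were at 0 in all 6 livers, and Adipoq reached at most 0.17 FPKM. The 7 skeletal and heart muscle genes summed to at most 0.86 FPKM. Of 9 bile duct markers only 4 passed the filter on the mean of all 6 livers, which high knockouts alone can lift. These 4 were all higher (median 1.01), and stellate and fibroblast markers were higher in 8 of 11 (median 0.36). Red cell markers were lower in 5 of 5 tested, of 7 listed (median -0.65, background 51.9%). Sinusoidal endothelial markers were lower in 8 of 10 (median -0.19, background 51.9%). Reads of the mitochondrial genome made up 6.17% to 8.23% of control libraries and 3.64% to 5.53% of knockout libraries. The part of these cell types, the acute phase and mitochondrial reads in these results was not tested. In whole liver, fewer hepatocytes and less RNA per hepatocyte cannot be told apart.

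**Figure D5:**
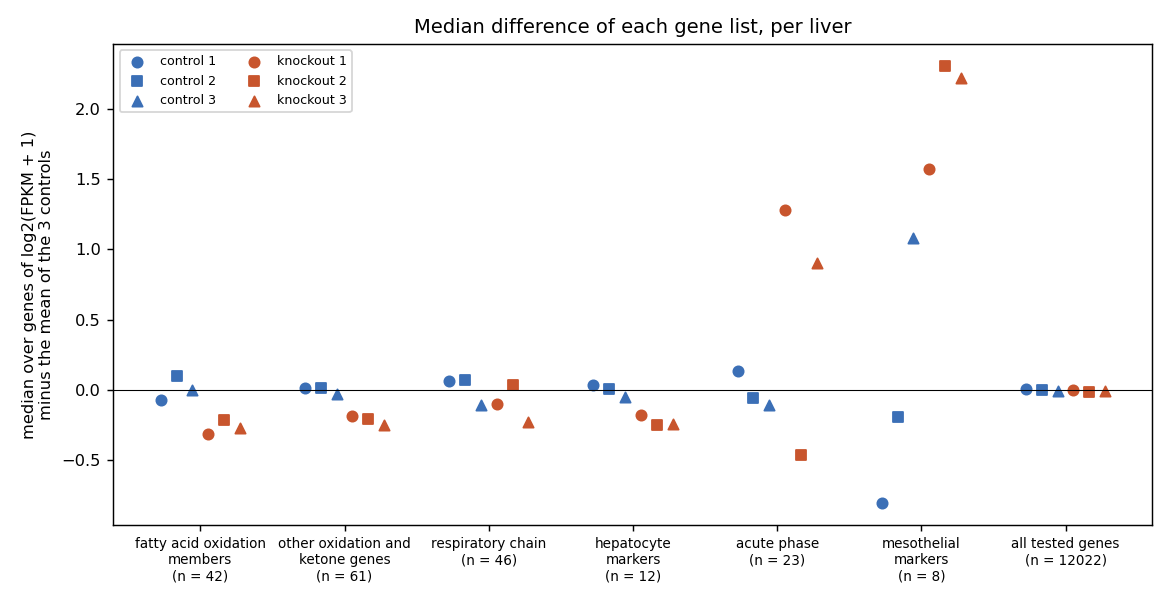
Median over the genes of each list of the difference from the control mean (y axis, log2(FPKM + 1)) in each of the 6 livers, controls in blue and knockouts in orange. The 42 genes and the hepatocyte markers are below 0 in every knockout, acute phase genes are high in knockouts 1 and 3 only, and mesothelial markers are highest in the 3 knockouts.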

How the data were processed

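Poly-T selected RNA of whole liver was made into libraries with a NEBNext Ultra kit, per the labels' protocols. Per the submitters' processing notes, the tools included featureCounts 1.5.0-p3 and HISAT2 2.0.5, on GRCm38. Strand, the handling of shared reads and the FPKM formula were not stated there or in the labels. The table the authors deposited holds FPKM for 54532 genes (0 further sample columns), with gene lengths as another column the authors deposited. Multiplied by length, 100% of the values above 0 came out as whole reads to within 0.1 read once divided by a step of each library, so reads could be recovered. The divisor followed each library's median ratio factor (0.911 to 1.22). At these depths 3 reads in a gene of 1 kilobase are 0.150 to 0.201 FPKM.

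The 12022 genes whose mean reached 0.5 FPKM entered a limma 3.58.1 fit (lmFit, eBayes with trend, R 4.3.3) of log2(FPKM + 1), two-sided, knockout against control, with Benjamini-Hochberg adjustment over all of them and a threshold of 0.05. The pseudocount of 1 understates changes of low genes. Unadjusted p-values are from the same fit. Errors are SD over n = 3 livers unless marked SE. No label says how the mice were kept or paired, and the p-values reflect only how these 6 livers spread. Deviations of same-numbered livers from their group means correlated at 0.31, 0.16 and 0.10 across genes, and at -0.25 to 0.11 for other numbers. Each same-number value was over 0.1, but so was that of control 3 with knockout 2, so this does not single out the numbers. They were taken as pairs in an alternative fit with a replicate block, although the labels state no pairing.

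The 42 genes and all gene lists were chosen with earlier results of these data known, so no p is given for a list. Values by liver are given for Ppara, for genes at an unadjusted p under 0.05 or without overlap, for the smallest p of each role and the 6 most abundant; genes of other lists are named by smallest p, apart from some that are not reported here. A share called background is that of all tested genes under the same rule. By identifier all 42 genes were in GENCODE M21 (GRCm38) and 38 had the same coordinates; those printed are the table's. Promoters are from RefSeq on GRCm38.p6. Transcripts of GENCODE M21 were cut into 100-base windows to find genes that share sequence (9 of the 42, 7 of them over 10%). Results were refitted under 15 alternatives.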

Additional observations from a re-analysis of the deposited data

How the results depend on the processing

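Over 15 alternatives, none brought any of the 42 genes past the adjusted threshold, and the median log2 fold change of the 42 was below 0 in each (15 of 15). Scaling moved the results most. With equal totals of recovered reads, 5 genes were lower at an unadjusted p under 0.05 in place of 18, the median was -0.14 in place of -0.28, and 8 genes were without overlap between groups in place of 24, while Acadvl (0.069), Acaa1a (0.067) and Acot4 (0.0092) turned higher. With quantile normalization the count was 10 and the median -0.18, and Acadvl was at 0.045. The cause was not tested. The replicate block, pseudocount, filters, weights and voom kept the counts within 1.5 times, and with the replicate block the median was -0.28, with 22 lower. Leaving out single livers gave 9 to 21 lower genes (9 without control 2, 11 without knockout 1), 36 to 41 with lower means and a median of -0.34 to -0.24. Of the 42 genes 35 kept their direction throughout, and 16 of 629 gene values turned. Besides those above, without control 1 Ppara was at -0.18 and Crat at -0.19. Without control 2, Acadvl was at 0.025 and Crat at -0.013. Without control 3, Acot2, Acot3 and Acot4 were at 0.084, 0.20 and 0.10. Without knockout 1, Ppara, Acaa1a and Acot2 were at -0.12, 0.015 and 0.25. Crat was at -0.19 without knockout 2 and at -0.055 without knockout 3. Over the left-out livers Ppara ranged from -0.18 to 0.14, Acadvl from -0.21 to 0.025, Crat from -0.19 to 0.27, Acot2 from -0.46 to 0.25 and Acot3 from -0.35 to 0.20. Depth was lowest for Acot3 and Acot2, at 19 to 112 and 40 to 217 reads per library.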

Other observations

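Pdk4 is induced by fasting, and its highest liver in each group was also the highest in other fasting genes, of which Igfbp1 and Pck1 were chosen after their values were seen. Igfbp1, a binding protein of insulin-like growth factors, measured 88.6, 296 and 589.8 FPKM in controls 1 to 3, against 84.9, 141 and 348 in knockouts 1 to 3. G6pc, the glucose-releasing phosphatase, measured 173, 257 and 386 FPKM in controls 1 to 3, against 61.9, 63.2 and 167 in knockouts 1 to 3, with every knockout below every control. Pck1, a gene of glucose synthesis, measured 406, 606 and 849.7 FPKM in control livers and 499.8, 492 and 772 in knockout livers. Number 3 was the highest liver of its group in all 3 genes, as in Pdk4. Of 13 fasting genes tested, 9 were lower on average in the knockouts (background 51.9%), with a median log2 fold change of -0.21. With equal read totals 7 were lower (background 29.9%) and the median was -0.13. As deposited, 3 were lower at an unadjusted p under 0.05 (23.1%, background 7.06%). Cpt1a, on that list too, did not show the high value in number 3 of the controls.

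Hadhb has a processed pseudogene, Gm13910 on chromosome 2, that holds 52.8% of the 100-base windows of its longest transcript. In the deposited table Gm13910 measured 35.9, 46.0 and 40.5 FPKM in control livers and 31.8, 29.1 and 33.5 in knockout livers, above Hadhb itself in every liver, and its groups were apart like those of Hadhb (log2 fold change -0.36, unadjusted p = 0.0196). The part of shared reads in either level was not tested.

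Nr1d2, a repressor of the circadian clock, measured 3.09, 4.398 and 3.37 FPKM in control livers and 2.25, 2.16 and 2.12 in knockout livers, and the clock-linked repressor Nfil3 38.5, 30.9 and 34.9 FPKM in control livers and 30.0, 22.9 and 27.7 in knockout livers. Both were lower in every knockout. Of the 14 clock genes tested, 8 were lower on average (background 51.9%), with a median log2 fold change of -0.0096. With equal read totals 5 were lower (background 29.9%) and the median was 0.11.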
